A study of Mus musculus with 2 samples.

Results

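The white blood cells found in mouse brain tissue, other than microglia and border macrophages, are described here from 2 droplet libraries of single barcodes. Members were chosen by their transcripts: a barcode had at least 500 genes, at most 5% of its unique molecular identifiers (UMIs, counted RNA molecules) from mitochondrial genes, at least 1 UMI of Ptprc, and a UMI of at least 3 of 11 leukocyte genes (Skap1, Cd247, Cd3e, Ms4a1, Cd79a, S100a8, S100a9, Retnlg, Plac8, Ccr2 and Itgal). It also had at most 2 UMIs of the microglial genes P2ry12, Tmem119 and Cx3cr1 together and at most 1 UMI of the neuronal, endothelial and oligodendrocyte genes Slc17a7, Pecam1 and Mog together. This left 112 leukocyte barcodes of 24541 that passed the gene and mitochondrial limits and of 27561 deposited. Because these genes chose the members, their levels are a description. The choice by transcripts cannot separate leukocytes in blood vessels from those in the tissue or the meninges, so the label "blood leukocytes" was not checked for location.

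The first library came from Shank3-/- mice given fluconazole, an azole antifungal, in drinking water for 2 weeks, and the second from Shank3-/- mice given vehicle in the same way. Shank3 is a scaffold of glutamatergic synapses, and both groups lack it, so no comparison with wild-type mice was possible. The tissue is named as brain in one field and as prefrontal cortex in another. The labels give neither the number of mice per library nor a perfusion step, and they speak in one place of cells and nuclei and in another of nuclei only. With 1 library per treatment there was no replicate and no test between treatments: each difference is between 2 libraries, the 95% intervals speak of counting error alone, and a difference between treatments cannot be told apart from one between mice, dissections or libraries. Of the 45 barcode sequences present in both libraries, 0 were members.

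Leukocytes share Ptprc (CD45, a tyrosine phosphatase of all nucleated blood cells). T cells recognise peptides through a receptor built from Trac and Trbc chains and the CD3 subunits, B cells recognise antigen through membrane immunoglobulin with Cd79a and Cd79b, and neutrophils carry granules of antimicrobial proteins and large amounts of the calcium-binding proteins S100A8 and S100A9. In a healthy brain, lymphocytes and neutrophils are scarce in the parenchyma and are found mainly in vessels, meninges and choroid plexus, and some T cells persist as resident cells.

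The barcodes fell into a lymphoid and a myeloid lineage with no overlap. Each was scored by how many genes of a lymphoid panel and of a myeloid panel, 30 genes each, had a UMI, and the lineage was that of the panel ahead by at least 2 genes. Fluconazole lymphoid barcodes had 8 to 17 lymphoid panel genes (median 13.5) and 0 to 2 myeloid ones, and vehicle lymphoid barcodes 4 to 17 (median 12) and 0 to 4. Fluconazole myeloid barcodes had 6 to 16 myeloid panel genes (median 12) and 0 to 3 lymphoid ones, and vehicle myeloid barcodes 5 to 20 (median 13) and 0 to 2. The smallest lead of any member was 3 genes, and every member kept its lineage when the 11 selecting genes were taken out of the panels.

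**Figure D1:**
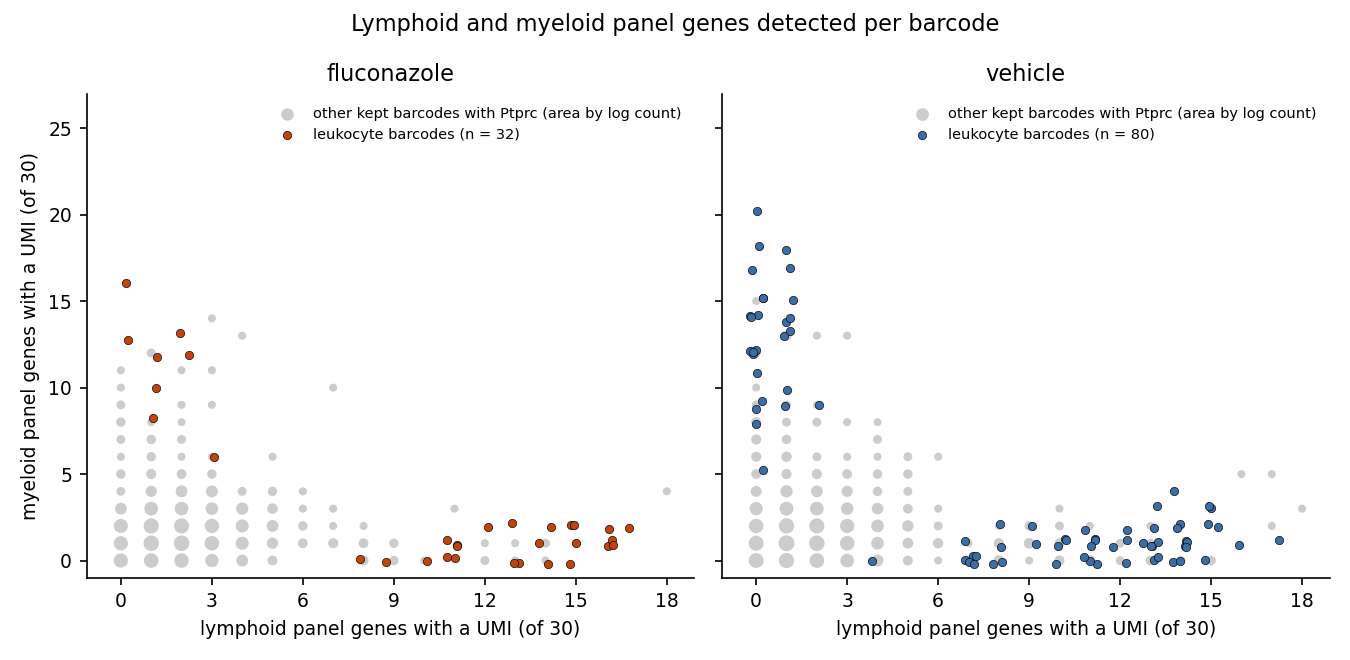
Each point is a barcode with Ptprc, placed by the number of lymphoid (x axis) and myeloid (y axis) panel genes with a UMI, of 30 each. The 32 leukocyte barcodes of the fluconazole library and the 80 of the vehicle library lie along one axis or the other, with at most 4 genes of the opposite panel, and grey circles are the other kept barcodes with Ptprc, their area growing with the logarithm of their number.

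The markers that go with the label were found in the members, divided by lineage. Cd3e, a subunit of the T cell receptor complex, was found in 83.3% of 24 fluconazole and 71.2% of 52 vehicle lymphoid barcodes and in none of the 8 fluconazole and 28 vehicle myeloid ones. Skap1, an adaptor of T cell receptor signalling, stood at 1413 CPM (the UMIs of the gene per 1000000 UMIs of the group) in fluconazole and 1683 CPM in vehicle lymphoid barcodes. Skap1 alone is a weak marker in this tissue, since it also had a UMI in 27% of fluconazole and 14.7% of vehicle glutamatergic neurons, at 34.6 and 23.6 CPM. S100a9 averaged 24386 CPM in fluconazole and 97872 CPM in vehicle myeloid barcodes, against 0 of 24 fluconazole and 2 of 52 vehicle lymphoid barcodes with a UMI. Plac8, a small protein of lymphoid and myeloid leukocytes, was spread over both lineages, with a UMI in 33.3% of fluconazole and 44.2% of vehicle lymphoid barcodes and in 62.5% of fluconazole and 50% of vehicle myeloid ones.

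Cd52, a small surface glycoprotein of leukocytes that the choice did not use, was found in 32 of 32 fluconazole members and 78 of 80 vehicle members. It had a UMI in 46.8% of fluconazole and 43.4% of vehicle microglia, and in 0.72% and 1.88% of endothelial barcodes. Its level in members, 1760 CPM in the fluconazole library and 2082 CPM in the vehicle library, was above the 116 and 135 CPM of microglia. Laptm5, a lysosomal protein of haematopoietic cells, ran the other way, with a UMI in 81.2% of fluconazole and 56.2% of vehicle members and in 98.6% and 97.9% of microglia. Of 10 border macrophage genes, Mrc1, Cd163, Lyve1, Ms4a7 and Cbr2 had no UMI in any member. The other 5 (Pf4, F13a1, Cd36, Stab1 and Clec12a) brought the list to 34 UMIs in 8 of 32 fluconazole members (186 CPM) and 69 UMIs in 13 of 80 vehicle members (233 CPM), and 1 vehicle lymphoid barcode held 23 UMIs of Pf4. The 12 microglial marker genes summed to 674 CPM in fluconazole and 885 CPM in vehicle lymphoid barcodes and to 840 CPM in fluconazole and 941 CPM in vehicle myeloid ones, against 25748 CPM in fluconazole and 27166 CPM in vehicle microglia.

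Fluconazole members were read more deeply. They had 2076 to 24204 UMIs (median 4598) and a median of 1906 genes, and vehicle members 1115 to 14478 UMIs (median 3010) and a median of 1444 genes. The other kept barcodes had medians of 5415 and 4433 UMIs. Ptprc had a median of 6.5 UMIs in fluconazole and 3.5 UMIs in vehicle members. At the limit of the choice, exactly 3 of the 11 genes had a UMI in 17 fluconazole and 43 vehicle members. Barcodes with 2 of them that met every other condition numbered 24 and 68, and 91.7% of the fluconazole set and 77.9% of the vehicle set led by at least 5 genes on one of the panels, so barcodes of much the same kind lay just outside the limit.

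Leukocytes were fewer in the fluconazole library. They made up 0.289% of its 11076 kept barcodes (32 barcodes, exact Clopper-Pearson interval 0.198% to 0.408%), against 0.594% of 13465 vehicle barcodes (80 barcodes, 0.471% to 0.739%), a ratio of 0.486 (exact conditional binomial interval 0.312 to 0.741). Lymphoid barcodes numbered 24 (0.217%, 0.139% to 0.322%) in the fluconazole library and 52 (0.386%, 0.289% to 0.506%) in the vehicle library, a ratio of 0.561 (0.331 to 0.927). Myeloid barcodes numbered 8 (0.0722%, 0.0312% to 0.142%) and 28 (0.208%, 0.138% to 0.3%), a ratio of 0.347 (0.137 to 0.782). Lymphoid barcodes were 75.0% of fluconazole and 65.0% of vehicle leukocytes, with intervals of 56.6% to 88.5% and 53.5% to 75.3% that overlap widely.

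**Figure D2:**
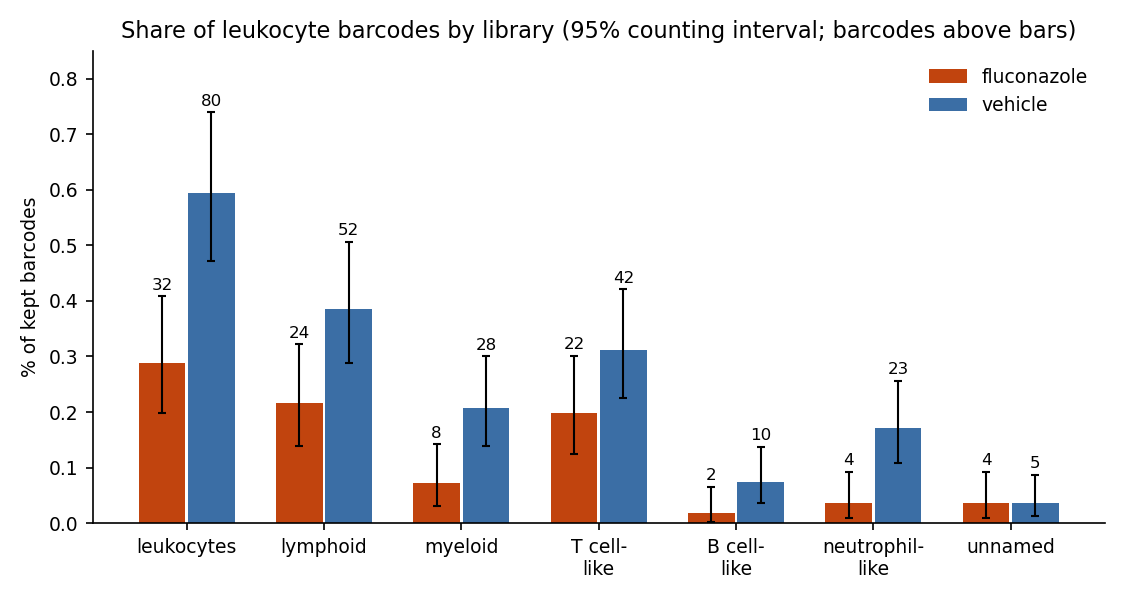
Bars give the percentage of kept barcodes (y axis, from 0) that were leukocytes, each lineage and each named type in the fluconazole library (left bar of each pair) and the vehicle library (right bar), with exact 95% counting intervals and the number of barcodes above each bar. The leukocyte bars stand at 0.289% and 0.594%, and the bars of unnamed myeloid barcodes, 4 and 5 barcodes, are nearly level.

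Other settings moved the ratio of shares but kept that of all leukocytes below 1. With every barcode thinned to 1500 UMIs, 12 of 10082 fluconazole barcodes and 47 of 11961 vehicle barcodes met the rule, a ratio of 0.303 (0.146 to 0.58). Replacing the rule by a panel lead of at least 8 genes, with the other cell types' limits kept, gave 58 fluconazole and 128 vehicle barcodes and a ratio of 0.551 (0.397 to 0.757). The lymphoid interval reached past 1 where at least 2 Ptprc UMIs were required (ratio 0.666, 0.382 to 1.13), where at least 4 of the 11 genes were required (0.718, 0.332 to 1.49), and without members that carried at least 5 UMIs of vessel and neuron marker genes (0.594, 0.34 to 1.01). The myeloid interval reached past 1 where at least 1000 genes were required (8 fluconazole and 17 vehicle barcodes, ratio 0.559, 0.209 to 1.37).

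RNA of blood cells lay lower in the fluconazole library outside the members as well. Genes of red blood cells, the haemoglobin genes and their kin, summed to 243 CPM in fluconazole and 820 CPM in vehicle microglia (CPM ratio 0.296), to 3032 and 6198 CPM in endothelial barcodes (ratio 0.489), to 146 and 252 CPM in glutamatergic neurons (ratio 0.58) and to 83.9 and 147 CPM in border macrophages (ratio 0.572). Over all other kept barcodes the difference was smaller, with 1388 CPM in the fluconazole and 1777 CPM in the vehicle library (ratio 0.781). S100a8 or S100a9 had a UMI in 3.55% of fluconazole and 15.7% of vehicle glutamatergic neurons, which should lack both. Their median depths were 12519 UMIs and 8539 UMIs. In endothelial barcodes, read to 4936 and 4918 UMIs, the shares were 0.45% and 5.04%. Over all other kept barcodes the S100a8 and S100a9 sum was 9.84 CPM in the fluconazole library and 45.1 CPM in the vehicle library, a ratio of 0.218 (0.201 to 0.237). The part of blood left in the tissue, or of free RNA, in the lower leukocyte share was not tested. Choosing without S100a8 and S100a9 left 27 fluconazole and 57 vehicle members (ratio 0.576, 0.35 to 0.926), of which 4 and 5 were myeloid (ratio 0.973, 0.193 to 4.52). Every neutrophil-like barcode described below had both genes, and none had enough of the other selecting genes to be chosen without them. The myeloid ratio of this setting thus leaves neutrophil-like barcodes out.

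Clustering of the 112 members gave 7 clusters, whose defining genes are a description. Clusters 0, 1 and 3 held 64 T cell-like barcodes, cluster 4 held 12 B cell-like barcodes, clusters 2 and 6 held 27 neutrophil-like barcodes, and cluster 5 held 9 myeloid barcodes that stayed unnamed. T cell-like barcodes numbered 22 in the fluconazole library (10, 4 and 8 in clusters 0, 1 and 3) and 42 in the vehicle library (14, 18 and 10), a ratio of shares of 0.637 (0.362 to 1.09). B cell-like barcodes numbered 2 and 10 (ratio 0.243, 0.0259 to 1.14). Neutrophil-like barcodes numbered 4 (3 and 1 in clusters 2 and 6) and 23 (15 and 8), a ratio of 0.211 (0.0531 to 0.619). The intervals for T cell-like and B cell-like barcodes include 1.

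**Figure D3:**
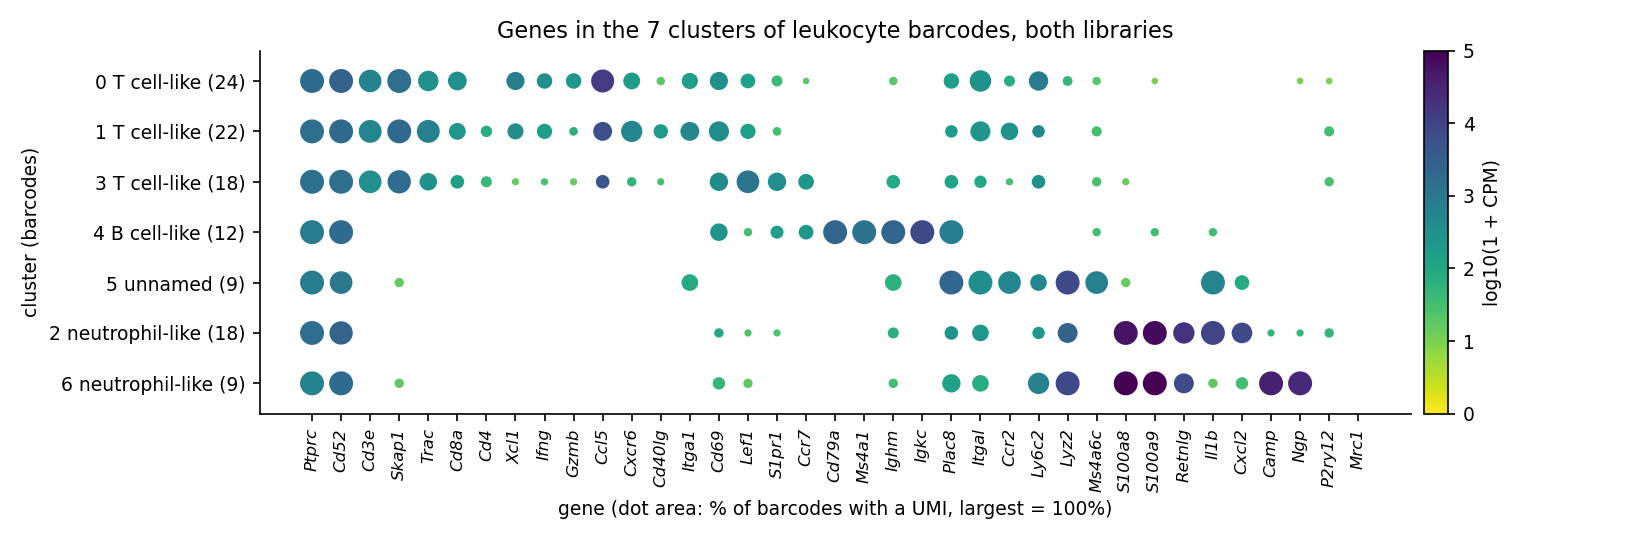
Rows are the 7 clusters with their number of barcodes from both libraries, columns are genes, dot area is the percentage of barcodes with a UMI and colour is the base 10 logarithm of 1 plus the CPM. T cell genes fill clusters 0, 1 and 3, immunoglobulin genes cluster 4, and S100a8 and S100a9 clusters 2 and 6, where Il1b is highest in cluster 2 and Camp and Ngp in cluster 6, and Mrc1 has no dot.

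Every T cell-like barcode had a receptor chain transcript: Trac, Trbc1 or Trbc2 was found in 64 of 64 and Cd3d, Cd3e or Cd3g in 63. Transcripts of CD8, the co-receptor of cytotoxic T cells, were more frequent than those of CD4, the co-receptor of helper T cells: Cd8a or Cd8b1 without Cd4 was found in 13 of 22 fluconazole and 27 of 42 vehicle barcodes. Cd4 without either Cd8 gene was found in 5 of 22 fluconazole and 2 of 42 vehicle barcodes. No barcode had both, and 4 fluconazole and 13 vehicle barcodes had neither, which at these depths does not show that they lack both. Foxp3, the factor of regulatory T cells, had no UMI in 64 barcodes, Trdc of the gamma-delta receptor had one in 2, and the natural killer genes Ncr1 or Klrb1c in 3, none of which had Trac.

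Cxcr6, a chemokine receptor of tissue-resident and effector T cells, was found in 30 T cell-like barcodes (11, 17 and 2 in clusters 0, 1 and 3). By library, Cxcr6 was found in 8 of 22 fluconazole and 22 of 42 vehicle barcodes. Cd69, an early activation and residency marker, was found in 13 of 24, 15 of 22 and 10 of 18 barcodes of clusters 0, 1 and 3, which puts it in all 3 clusters. Itgae, an integrin chain of resident T cells, was found in 1, 2 and 4 barcodes. These counts rest on genes of the same barcodes that made the clusters, so they describe the clusters and do not test them.

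Ccl5, a chemokine of memory and cytotoxic T cells, stood at 13821 CPM in cluster 0 with a UMI in 22 of 24 barcodes, against 6313 CPM in cluster 1 and 5039 CPM in cluster 3. The leading genes of cluster 0 included Xcl1 and Ifng (a chemokine and a cytokine of activated CD8 T cells), Gzmb (a cytotoxic protease) and Tbx21 (T-bet, the type 1 lineage factor). Ifng had a UMI in 9 of 24 barcodes there and in 8 of 22 of cluster 1. Cluster 1 was led by Cd40lg, Cxcr6, Rgs1 and the collagen-binding integrin chain Itga1, which had a UMI in 13 of its 22 barcodes. Cluster 3 was led by Lef1, Satb1, S1pr1 and Ccr7, genes of naive and recirculating T cells, and S1pr1, the receptor for exit into blood and lymph, was found in 10 of its 18 barcodes, against 4 of 24 in cluster 0 and 2 of 22 in cluster 1.

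The B cell-like barcodes carried transcripts of the unswitched heavy chains only. Igkc, the kappa light chain, was found in 12 of 12 at 1 to 47 UMIs, Ighm, the IgM heavy chain, in 12 at 1 to 13 UMIs and Ighd, the IgD chain, in 7. The kappa chain outnumbered the lambda chains in 11 barcodes. Jchain of antibody-secreting cells and the constant chains of IgG and IgA had no UMI in the 12. The 2 fluconazole barcodes held 15 and 47 UMIs of Igkc and 7 and 12 of Cd79a, within the 1 to 32 and 1 to 13 of the 10 vehicle barcodes except for the 47. All 12 had Plac8, a selecting gene. Of the 11 selecting genes only Ms4a1 and Cd79a are B cell genes, and at least 3 of the 11 were needed. B cells without Plac8 could thus be missed, so this is no trait of B cells.

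The neutrophil-like barcodes fell into a set with granule transcripts and a set with inflammatory transcripts. All 27 had S100a8 and S100a9. All 9 barcodes of cluster 6 had Camp and Ngp, granule proteins made in immature neutrophils, at 36853 and 26319 CPM, with Ltf, Lcn2 and Cd177 among the leading genes of their cluster, and 1 of the 9 had a UMI of Il1b. The counts were uneven, from 6 to 781 UMIs of Camp and from 2 to 480 of Ngp. The vehicle barcodes with 6, 11 and 12 UMIs of Camp had 68, 112 and 138 of Retnlg. All 18 barcodes of cluster 2 had at least 3 UMIs of Il1b, the inflammatory cytokine, and 13 had Cxcl2, 12 Acod1 and 11 Ptgs2. No barcode had both at least 5 UMIs of Camp and Ngp and at least 3 of Il1b. Il1b was also found in the unnamed myeloid barcodes, so it was not peculiar to neutrophil-like ones.

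The proliferation genes Mki67 or Top2a had a UMI in 3 neutrophil-like barcodes, all of cluster 6. The single fluconazole barcode of that cluster held 13456 UMIs, with 1303 of S100a8, 1160 of S100a9, 515 of Camp, 480 of Ngp, 15 of Mki67 and 20 of Top2a. It was the only member that the doublet caller marked. The deepest vehicle barcode of the cluster held 14478 UMIs, with 2489 of S100a8, 781 of Camp, 409 of Ngp, 6 of Mki67 and 12 of Top2a. The 3 fluconazole barcodes of cluster 2 had 26, 49 and 46 UMIs of Il1b, and the 15 vehicle ones 3 to 64.

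**Figure D4:**
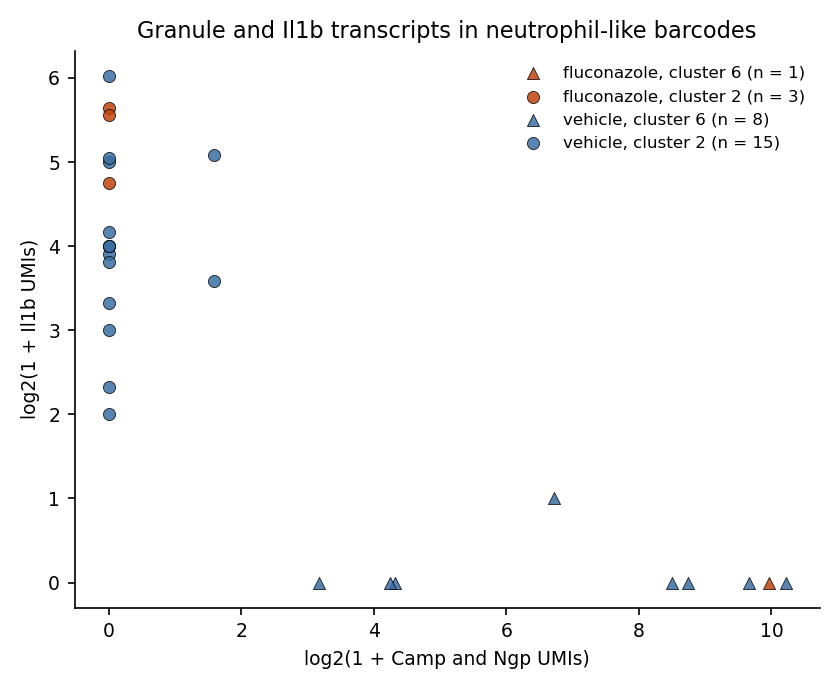
Each point is 1 of the 27 neutrophil-like barcodes, placed by log2(1 + Camp and Ngp UMIs) on the x axis and log2(1 + Il1b UMIs) on the y axis, with triangles for cluster 6 (1 fluconazole, 8 vehicle) and circles for cluster 2 (3 fluconazole, 15 vehicle). The 18 circles hold the upper left and the 9 triangles the lower edge.

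The 9 unnamed myeloid barcodes (4 fluconazole, 5 vehicle) had Plac8 and Itgal without exception. Both are selecting genes, and S100a9 and Retnlg had no UMI in these 9. The choice thus left few other ways to reach 3 of the 11 genes, so this is no trait of the cells. Of 13 monocyte markers 12 were found in at least 20% of these barcodes, as were 8 of 12 microglial markers. Neuronal genes led the cluster, so no name was given. They were most abundant in 1 fluconazole barcode of 24204 UMIs, the deepest member of all, with 313 UMIs of Kcnip4 and 151 of Csmd1. Ly6c2, of classical monocytes, was found in 1 of 4 fluconazole and 3 of 5 vehicle barcodes, and Ace, Treml4 or Cd36, genes of patrolling monocytes, in 3 of 4 and 2 of 5. One vehicle barcode held 59 UMIs of H2-Aa and 83 of Cd74, genes of MHC class II, the antigen presentation system of dendritic cells and B cells, and no other unnamed barcode had H2-Aa. At a coarser setting the members formed 4 clusters, and 7 myeloid barcodes (3 fluconazole, 4 vehicle) were led by F13a1, Ms4a6c, Fn1 and Plac8.

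Transcripts for ribosomal proteins had higher medians in lymphoid members than in the resident brain cells, with ranges that overlapped. They made up a median of 21.4% of the UMIs of fluconazole and 17.8% of those of vehicle lymphoid barcodes, with ranges of 11.9% to 40.8% and 7.73% to 37.4%. The unnamed myeloid barcodes had medians of 15.4% and 16.2%. Medians were 4.83% and 4.82% in microglia, 6.4% and 6.7% in border macrophages, 6.81% and 6.82% in endothelial barcodes and 0.291% and 0.379% in glutamatergic neurons. Single microglia, border macrophages and endothelial barcodes reached 27.1%, 27.3% and 32.5%. Neutrophil-like barcodes stood at 3.97% in the fluconazole and 2.59% in the vehicle library. Malat1, a nuclear RNA, had medians of 1.24% and 1.17% in leukocytes, against 4.57% and 4.10% in glutamatergic neurons.

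Igf1r, the insulin-like growth factor receptor named in the study's title, was sparse in lymphoid members. It stood at 131 CPM in fluconazole and 113 CPM in vehicle lymphoid barcodes (16 and 21 UMIs), against 2364 and 1844 CPM in endothelial barcodes and 279 and 246 CPM in microglia. Fluconazole myeloid barcodes had 346 CPM and vehicle myeloid ones 687 CPM, with a UMI in 6 of 8 and 20 of 28. In neutrophil-like barcodes alone the levels were 570 CPM in the fluconazole and 824 CPM in the vehicle library, and the log2 ratio of −0.53 had an interval of −1.55 to 0.36.

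Genes were next compared between treatments within each lineage, by dividing the fluconazole CPM by the vehicle CPM and taking the base 2 logarithm. Of 2902 genes with at least 20 UMIs in lymphoid barcodes, 4.10% were at least 2-fold higher and 7.68% at least 2-fold lower in the fluconazole library, and the median was −0.01. The 24 fluconazole barcodes held 121749 UMIs and the 52 vehicle ones 185344. The counting intervals take every UMI as independent, so they are too narrow where few barcodes hold a gene.

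Among lymphoid genes with at least 50 UMIs, in at least 15 barcodes and with no barcode holding over 25% of a library's UMIs, those with the highest ratios included Sidt1 (1.55, interval 0.87 to 2.27), Klf3 (1.40, 0.63 to 2.21), Nufip2, Arglu1, Atp1b3, Polr1d, Eif3f, Emp3 and Arsb (1.02, 0.26 to 1.80). Eif3f, a subunit of a translation initiation factor, had 0 to 7 UMIs (median 2.5) in fluconazole and 0 to 4 (median 1.0) in vehicle lymphoid barcodes, with a UMI in 23 of 24 and 30 of 52. Its levels were 542 and 243 CPM, a log2 ratio of 1.16 (0.59 to 1.74). Emp3, a membrane protein of leukocytes, was found in 19 of 24 and 23 of 52 barcodes at 427 and 194 CPM, a log2 ratio of 1.14 (0.50 to 1.79). Atp1b3, a subunit of the sodium pump, had 0 to 9 UMIs (median 1.0) in fluconazole and 0 to 4 (median 0.0) in vehicle barcodes and a log2 ratio of 1.28 (0.61 to 1.96). The ranges of all of these overlapped between the libraries, with vehicle barcodes at or below 6 UMIs of Sidt1, Klf3, Nufip2, Arglu1, Atp1b3, Eif3f and Emp3.

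By the same limits the lowest ratios were those of Bsg (−1.50, −2.22 to −0.83), Rel, Mef2c, Pde4d, Rabac1, Dusp2, Cyth1, Fchsd2, Abtb3 and Cxcr6 (−1.15, −2.05 to −0.32). Pde4d, a phosphodiesterase that breaks down cyclic AMP, had 0 to 4 UMIs (median 1.0) in fluconazole and 0 to 9 (median 3.0) in vehicle lymphoid barcodes, at 296 and 804 CPM, a log2 ratio of −1.44 (−2.01 to −0.91). Dusp2, a MAP kinase phosphatase induced in activated lymphocytes, was found in 9 of 24 and 27 of 52 barcodes at 181 and 475 CPM, a log2 ratio of −1.39 (−2.14 to −0.71). Rabac1, an adaptor of Rab proteins, was found in 11 of 24 and 35 of 52 barcodes and had a log2 ratio of −1.44 (−2.33 to −0.63). Vehicle barcodes reached higher counts of Pde4d, Dusp2 and Rabac1, and the ranges overlapped at the low end.

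Cell makeup and RNA of other cells moved with some of these ratios. B cell-like barcodes were 2 of 24 fluconazole and 10 of 52 vehicle lymphoid members, and in T cell-like barcodes alone (10, 4 and 8 fluconazole and 14, 18 and 10 vehicle barcodes of clusters 0, 1 and 3) the intervals reached past 0 for Rel (−1.0, −2.20 to 0.09), Mef2c (−0.93, −2.22 to 0.23), Cyth1 and Fchsd2. Bsg, a partner of lactate transporters that is abundant in brain endothelium, had its highest vehicle counts, 18 and 17 UMIs, in 2 barcodes with 41 and 23 UMIs of endothelial markers. Endothelial markers summed to 246 CPM in fluconazole and 621 CPM in vehicle lymphoid barcodes and mural and fibroblast markers to 73.9 and 777 CPM. Without the 2 fluconazole and 7 vehicle lymphoid members that had at least 5 UMIs of vessel and neuron markers, the Bsg log2 ratio was −0.70 (−1.49 to 0.04) and that of Cxcr6 −0.75 (−1.69 to 0.12). Pde4d (−1.23, −1.83 to −0.67), Dusp2 (−1.42, −2.23 to −0.68) and Rabac1 (−1.11, −2.02 to −0.27) stayed below 0 there, and Eif3f (1.0, 0.41 to 1.61) and Emp3 (1.04, 0.35 to 1.75) above it.

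**Figure D5:**
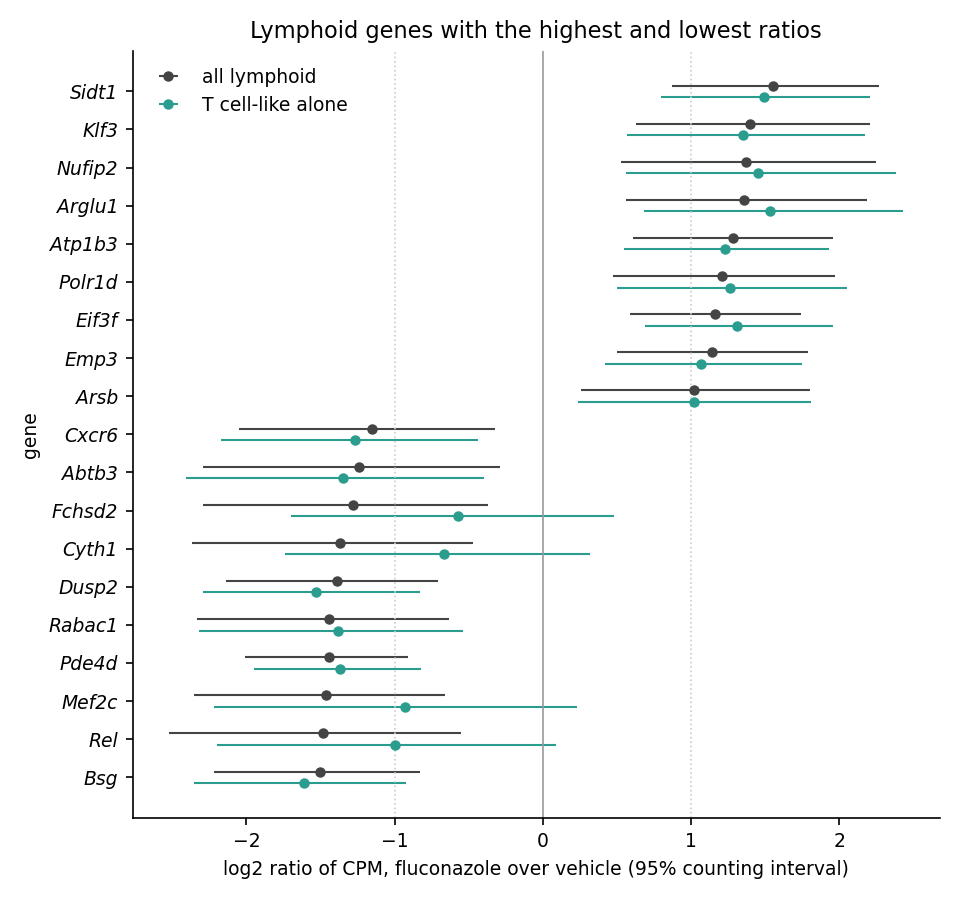
Points are log2 ratios of CPM, fluconazole over vehicle, with 95% counting intervals (x axis) for 9 of the 10 lymphoid genes with the highest ratios and the 10 with the lowest, in all lymphoid barcodes and in T cell-like barcodes alone. Dotted lines mark 2-fold, and in T cell-like barcodes the intervals of Rel, Mef2c, Cyth1 and Fchsd2 cross 0.

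Genes of T cell function were described by list. Over all 2902 measured lymphoid genes 1434 were above 0 and 1468 below (median −0.01), and many of the lymphoid list counts lie near that share. Of 11 measured cytotoxic granule and killer receptor genes 7 had ratios above 0 and 4 below, with a median of 0.19, but 4 above and 7 below (median −0.05) without the members with vessel and neuron RNA. Their sum was 13865 CPM in fluconazole and 8929 CPM in vehicle lymphoid barcodes. Most of that difference lay in Ccl5, at 10407 and 6421 CPM (log2 ratio 0.70, 0.58 to 0.81) with 1267 and 1190 UMIs. Ccl5 was a leading gene of cluster 0, which held 10 of 22 fluconazole and 14 of 42 vehicle T cell-like barcodes. Gzma, a granule protease, had 156 UMIs in 6 of 24 fluconazole barcodes and 55 UMIs in 3 of 52 vehicle barcodes, and 1 barcode held 46.2% of the fluconazole UMIs. Klrk1 (NKG2D, −1.36, −2.52 to −0.33) and Ifng (−1.29, −2.40 to −0.31) had the lowest ratios of the list. Nkg7, a granule membrane protein, was at 1051 and 923 CPM.

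Of 19 measured genes of T cell receptor signalling 6 were above 0 and 13 below, with a median of −0.10, against 1434 above 0 of all 2902 lymphoid genes. Zap70, the kinase bound by the activated receptor, had a log2 ratio of −1.13 with an interval of −2.74 to 0.24. Cd3g, a receptor subunit, was at 690 CPM in fluconazole and 987 CPM in vehicle barcodes (−0.52, −0.91 to −0.14), and its partner Cd3d at 698 and 599 CPM (0.22, −0.20 to 0.64). Of the 16 measured genes of T cell subsets 8 were above and 8 below 0: Tbx21 had 1.22 (0.22 to 2.27), Lef1 0.71 (0.16 to 1.26) and Klf2, which keeps T cells recirculating, 0.42 (0.12 to 0.71). One barcode held 39.1% of the fluconazole UMIs of Tbx21. Tbx21 was a leading gene of cluster 0 and Lef1 of cluster 3. These clusters held 10 and 8 of 22 fluconazole and 14 and 10 of 42 vehicle T cell-like barcodes, so makeup and level cannot be told apart. Ikzf2, a factor of regulatory and innate-like T cells, had 3 UMIs in 2 fluconazole and 36 UMIs in 12 vehicle barcodes (−2.98, −5.32 to −1.32).

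Ccl4, a chemokine of activated T cells and myeloid cells, had 44 UMIs in 10 of 24 fluconazole and 222 UMIs in 24 of 52 vehicle lymphoid barcodes, with highest values of 14 and 52 UMIs. Its levels were 361 and 1198 CPM, a log2 ratio of −1.73 (−2.23 to −1.26). One barcode held 31.8% of the fluconazole UMIs and another 23.4% of the vehicle UMIs. The share of barcodes with a UMI was 41.7% and 46.2%. Fluconazole lymphoid barcodes were deeper (median 4779 UMIs against 2972), so these shares cannot tell fewer positive barcodes from lower counts in them. Xcl1, in contrast, was at 394 and 389 CPM, and 1 of its 4 positive fluconazole barcodes held 87.5% of the UMIs. Of the 5 measured chemokines and cytokines 2 were above and 3 below 0. Both measured cell cycle genes were above 0, and of 4 nuclear-retained RNAs 1 was above and 3 below.

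B cell genes and genes of antigen presentation to helper T cells lay low in the fluconazole library, where fewer barcodes were B cell-like. All 7 measured genes of B cell receptor signalling were below 0 (median −0.85), 3 of them by at least 2-fold, and so were all 4 measured MHC class II genes (median −1.34). In T cell-like barcodes alone 2 B cell receptor genes and no class II gene had 20 UMIs. Of 12 MHC class I genes 6 were above and 6 below 0 (median 0.05), with Psmb8, an immunoproteasome subunit, lowest at −0.95 (−1.57 to −0.37). Interferon response genes were sparse: 2 of 20 had enough UMIs, and both were below 0 (median −1.13).

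Ribosomal protein genes were slightly higher, with 64 of 77 above 0 and a median of 0.13, but with scaling by the median of gene ratios in place of the total, which moves all lymphoid ratios by 0.10, the median was 0.03. Over all lymphoid genes 1434 of 2902 were above 0. Mitochondrially encoded genes had 8 of 11 above 0 (median 0.34), immediate early genes 10 of 14 (median 0.25), cytokine receptors 6 of 11 (median 0.30), adhesion and homing genes 7 of 12 (median 0.10), survival genes 5 of 7 (median 0.17) and heat shock genes 4 of 7 (median 0.02). All 4 measured S100 genes were above 0 (median 0.55), led by S100a4, a protein of effector T cells, at 1076 CPM in fluconazole and 658 CPM in vehicle barcodes (0.71, 0.34 to 1.08). Bcl2, the survival gene, was at 912 and 583 CPM (0.65, 0.25 to 1.04).

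Toll-like receptor and NF-kappaB genes had 2 of 7 above 0 (median −0.33), with Rel lowest and Pycard, an inflammasome adaptor, highest at 1.57 (0.73 to 2.45). The share over all lymphoid genes was 1434 of 2902. Glucocorticoid genes had 2 of 6 above 0 (median −0.10), with the receptor gene Nr3c1 at 345 CPM in fluconazole and 696 CPM in vehicle barcodes (−1.01, −1.55 to −0.50). Of the lists nearest to the study's title, lipid raft and ganglioside genes had 5 of 11 above 0 (median −0.02, and 0.07 in T cell-like barcodes alone), none past 2-fold, and IGF1 receptor to mTOR genes 6 of 18 (median −0.10). Pik3r5, a regulatory subunit of a PI3 kinase, was highest at 1.51 (0.55 to 2.52) and Sos1, which activates Ras, lowest at −1.39 (−3.16 to 0.06). Of 22 cholesterol synthesis genes, the pathway that azoles can block at Cyp51, 1 had 20 UMIs in lymphoid barcodes and none in myeloid ones, so the pathway was not measurable in these cells at this depth.

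The myeloid comparison rests on 8 fluconazole barcodes with 60691 UMIs and 28 vehicle barcodes with 110573 UMIs. Of 1473 genes with at least 20 UMIs 16.7% were at least 2-fold higher and 14.6% at least 2-fold lower in the fluconazole library, a median of −0.09, which is a wide background. The barcode of 24204 UMIs with neuronal transcripts held 96.4% of the glutamatergic marker UMIs of the fluconazole myeloid barcodes, whose marker sum was 2290 CPM against 163 CPM in vehicle ones. Higher genes were 53.4% of those past 2-fold; they were 63.4% with each barcode weighted equally and 10.2% without the barcode that held most UMIs of a gene. Without the 3 fluconazole and 4 vehicle members with at least 5 UMIs of vessel and neuron markers, 14581 and 76417 UMIs remained.

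S100a8 had 1561 UMIs in 4 of 8 fluconazole and 9558 UMIs in 24 of 28 vehicle myeloid barcodes, at 25721 and 86441 CPM, and the barcode of 13456 UMIs held 83.5% of the fluconazole UMIs. In neutrophil-like barcodes alone (3 and 1 fluconazole and 15 and 8 vehicle barcodes of clusters 2 and 6) its levels were 74136 and 114085 CPM, a log2 ratio of −0.62, and those of S100a9 70289 and 129186 CPM (−0.88). All 13 measured neutrophil granule genes were below 0 over the lineage (median −0.93), whereas within neutrophil-like barcodes 6 were above and 7 below (median −0.14). Of all genes, 664 of 1473 were above 0 over the lineage and 404 of 753 in neutrophil-like barcodes. Neutrophil-like barcodes were 4 of 8 fluconazole and 23 of 28 vehicle myeloid members, and the barcode of 13456 UMIs held most of the 21056 UMIs of the 4 fluconazole ones. Without the members with vessel and neuron RNA, that barcode among them, all 13 granule genes were below 0 (median −2.08), 11 by at least 2-fold. Of all 755 genes there, 102 were at least 2-fold lower. The barcode of 13456 UMIs was the only fluconazole one of cluster 6. The 3 fluconazole neutrophil-like barcodes that stayed had no UMI of Camp, Ngp or Ltf. Makeup and level cannot be told apart in this set, and the list holds the selecting genes S100a8 and S100a9. Retnlg, a secreted neutrophil protein used in the choice, had 21 UMIs in 3 fluconazole and 1202 UMIs in 17 vehicle barcodes.

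The chemokine genes Ccl3 and Ccl4 were the lowest of the 6 measured chemokine and cytokine genes, 1 of which was above 0. Ccl3 had 3 UMIs in 3 of 8 fluconazole and 142 UMIs in 11 of 28 vehicle barcodes, and 40.1% of the vehicle UMIs lay in 1 barcode. Ccl4 had 7 UMIs in 5 of 8 fluconazole and 219 UMIs in 6 of 28 vehicle barcodes, and 61.6% of the vehicle UMIs lay in 1 barcode. Il1b, by contrast, was at 2323 and 2722 CPM (−0.23, −0.53 to 0.06) over the lineage and at 5747 and 3390 CPM (0.76, 0.44 to 1.07) in neutrophil-like barcodes alone. The fluconazole UMIs of Il1b in that set lay in 3 barcodes, and the barcode of 13456 UMIs had none, so the interval is too narrow. All 4 measured MHC class II genes were below 0, and H2-Aa, H2-Ab1 and H2-Eb1 had no UMI in fluconazole myeloid barcodes, while 1 vehicle barcode held all 59, 56 and 42 of theirs.

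Of the myeloid genes spread widely enough to be ranked, Dleu2 (0.95, 0.23 to 1.67), Srsf5 (0.91, 0.14 to 1.69) and B2m (0.65, 0.08 to 1.22) had intervals above 0. Anxa2, an annexin of myeloid cells, had the lowest ratio, at 231 CPM in fluconazole and 687 CPM in vehicle barcodes (−1.58, −2.51 to −0.74), and Mapkapk2, Arpc5, Igf1r, Cd9 and Dennd4a were also among the lowest. None of these 6 kept an interval below 0 without the members with vessel and neuron RNA: Anxa2 was then at −0.51 (−1.70 to 0.50). In that set B2m was at 1.45 (0.66 to 2.21), Srsf5 at 1.74 (0.66 to 2.77) and Dleu2 at 1.69 (0.69 to 2.64), from 5 fluconazole barcodes, and the median of all 755 genes measured there was 0.30, with 470 above 0. In neutrophil-like barcodes alone B2m was at −0.07 (−1.17 to 0.90).

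Other myeloid lists gave different values over the lineage and in its neutrophil-like barcodes. Of all genes, 664 of 1473 were above 0 over the lineage (median −0.09). In neutrophil-like barcodes 404 of 753 were (median 0.10), and many of the list counts lie near these shares. Of 16 measured immediate early genes 4 were above and 12 below 0 (median −0.25), against 6 and 5 of 11 (median 0.07) in neutrophil-like barcodes alone. S100 genes had 1 of 6 above 0 over the lineage (median −1.82) and 0 of 4 in neutrophil-like barcodes (median −0.77). Ribosomal protein genes had 43 of 77 above 0 (median 0.05) over the lineage, against 57 of 67 (median 0.75) in neutrophil-like barcodes. Lipid raft and IGF1 receptor to mTOR genes each had 2 of 7 above 0, with medians of −0.65 and −0.56. In neutrophil-like barcodes the raft genes had 1 of 6 above 0 (median −0.54) and the IGF1 receptor to mTOR genes 3 of 5 (median 0.14), and without the members with vessel and neuron RNA the medians were −0.13 and 0.23. Nr3c1 ran opposite to the lymphoid lineage, with 26 UMIs in 7 of 8 fluconazole and 15 UMIs in 11 of 28 vehicle barcodes (1.66, 0.69 to 2.68). These values are over the lineage, where 4 of 8 fluconazole and 23 of 28 vehicle barcodes were neutrophil-like. There 16.7% of all genes were at least 2-fold higher. The difference between lineages was not tested.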

How the data were processed

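The deposited values are raw UMI counts per gene and barcode, made with Cell Ranger, which the file headers give as version 8.0.1 and the submitters' processing notes as version 9.0.0, against the mm10 build. The notes also name Seurat 4.0.0 and R 4.0.3. Each treatment had 1 library (12637 fluconazole and 14924 vehicle barcodes, 33696 features), so no test between treatments was made. Members, lists and panels were chosen with earlier results of these data known. Filters, the member rule and lineages are stated with the results.

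Counts were summed per library and group, scaled to CPM, and compared with exact conditional binomial intervals at 95%; counts of 0 were set to a floor of 3 UMIs per group. Genes needed at least 20 UMIs over both libraries. Named genes were the 10 highest and 10 lowest ratios per lineage among genes with at least 50 UMIs, a UMI in at least 15 barcodes and no barcode with over 25% of a library's UMIs; from each list with at least 5 measured genes, the 2 highest, 2 lowest and 3 most abundant; the selecting genes; and the cell type markers. Cd52, Laptm5, Igf1r, Nr3c1 in myeloid barcodes and the gene combinations counted per barcode were chosen after their values were seen. Clusters used counts scaled to 10000 per barcode, logged, with 1000 variable genes, 15 components, 10 neighbours and Leiden resolution 1.0; a cluster led by genes that go against a type stayed unnamed. Scrublet, run per library with an expected rate of 8%, called 517 fluconazole and 617 vehicle barcodes; doublets were kept in the main results and left out in an alternative. The count and interval code was tested on simulated data. Tools were Python 3.11.15, numpy 2.4.6, scipy 1.17.1, pandas 2.3.3, scanpy 1.11.5, leidenalg 0.10.2 and scikit-learn 1.9.0.

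The alternatives that leave out members with vessel and neuron RNA or the deepest barcodes, that keep T cell-like or neutrophil-like members only, or that use a panel lead were chosen after seeing the data. Results for some genes that the rule names are not reported here.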

Additional observations from a re-analysis of the deposited data

Results flagged for a closer look

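The 3 genes Lsp1, Mef2c and Pde4d ran in opposite directions in the lymphoid and the myeloid members, and the difference between the lineages was not tested. Lsp1, an actin-binding protein of leukocytes, had a log2 ratio, fluconazole over vehicle, of 0.58 in lymphoid and −0.82 in myeloid barcodes, but 0.09 in myeloid barcodes without the members with vessel and neuron RNA. Mef2c, a transcription factor of B cells, myeloid cells and neurons, had −1.46 in lymphoid and 1.63 in myeloid barcodes, where 1 barcode held 71.8% of the fluconazole UMIs. Pde4d had −1.44 in lymphoid and 0.61 in myeloid barcodes, where 1 barcode held 80.4% of the fluconazole UMIs.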

How the results depend on the processing

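The lower share of leukocytes in the fluconazole library had a ratio below 1 under every alternative run, lowest when barcodes were thinned to 1500 UMIs (0.303, against 0.486). The myeloid ratio of shares was 0.128 with no microglial UMI allowed (2 fluconazole and 19 vehicle barcodes) and 0.973 with S100a8 and S100a9 taken out of the rule (4 and 5). No neutrophil-like barcode could meet the rule without these genes. The lymphoid ratio was 1.29 at a limit of 1% mitochondrial UMIs, which left 2 barcodes in each library. At a resolution of 0.5 the members formed 4 clusters.

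Genes at least 2-fold higher and lower in lymphoid barcodes numbered 119 and 223, and 44 and 87 when thinned; without the barcode with most UMIs of the gene 69 were higher and 201 lower. In myeloid barcodes they numbered 246 and 215, against 41 and 51 when thinned, 96 and 94 in neutrophil-like members only, 108 and 124 without the deepest barcode of each library, and 146 and 102 without members with at least 5 UMIs of vessel and neuron markers; without the barcode with most UMIs of the gene 25 were higher and 219 lower. Thinning tests fewer genes, and leaving out the barcode with most UMIs of a gene takes more from the library with fewer members. Myeloid log2 ratios that turned round were those of Arpc5 (0.09 when thinned), B2m (−0.07) and Dennd4a (0.11) in neutrophil-like members only, and Mapkapk2 (0.07), Cd9 (0.57), Gmfg (0.09) and Lsp1 (0.09) without members with vessel and neuron RNA. The cause was not tested.

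No paired analysis was possible because each treatment had 1 library. The member counts, 32 fluconazole and 80 vehicle barcodes, limit all of these values, and a change of a gene with under 20 UMIs was not detectable at this depth.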
